A study of Mus musculus with 16 samples.

Results

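The lysosomal cathepsins are proteases that mostly cut proteins in the acidic vesicles of the cell. Transcripts of 10 of them, *Ctsa*, *Ctsb*, *Ctsc*, *Ctsd*, *Ctsh*, *Ctsk*, *Ctsl*, *Ctss*, *Ctsw* and *Ctsz*, were followed through mouse hamstring muscle. They were chosen by gene symbol from the 26382 genes of the bulk RNA-sequencing table, and all 10 passed the filter on low values that kept 16414 genes. Libraries of poly(A) RNA came from female C57BL/6 mice aged 8 to 10 weeks at injection and killed on day 14. HRS, recombinant histidyl-tRNA synthetase (Jo-1), is a common autoantigen of human myositis and was injected at 3 to 5 mg/mL to induce muscle inflammation. The 16 libraries comprised 5 HRS-injected left legs (mice m862 to m866), the 5 contralateral PBS-injected right legs of the same mice, 4 legs of 2 mice that received PBS only (m867 and m868), and 1 library from each of 2 mice (m860 and m861) given an MBP fusion protein of HRS at 2 to 3 mg/mL (HRS-MBP). Sample titles place HRS in one leg and PBS in the other, whereas the general protocol describes injection of both hamstrings, and the legs are grouped here by the titles. The side of the HRS-MBP libraries is not stated, and the 4 PBS-only libraries are 2 animals.

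Most cathepsins are cysteine proteases of the papain family (*Ctsb*, *Ctsc*, *Ctsh*, *Ctsk*, *Ctsl*, *Ctss*, *Ctsw* and *Ctsz*), *Ctsd* encodes an aspartic protease, and *Ctsa* encodes a serine carboxypeptidase that also protects β-galactosidase and neuraminidase in a complex. Many cell types, muscle fibers among them, use cathepsins B, D and L for general protein turnover, whereas cathepsin S is typical of antigen-presenting cells, cathepsin K of osteoclasts and activated fibroblasts, and cathepsin W of NK cells and cytotoxic T cells. In inflamed muscle, resident fibers and incoming leukocytes can therefore both bear on the cathepsin content of the tissue. In bulk RNA, a change in the number of cells of one type and a change in RNA per cell cannot be told apart.

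Implied sequencing depths ran from 24.7 to 73.9 M reads in the legs of the HRS mice, from 8.60 to 40.7 M reads in PBS-only legs and from 37.3 to 39.6 M reads in HRS-MBP libraries. Totals of normalized counts moved with the groups, at 726797 to 871400 in the HRS legs of m862 to m865, 1162004 in that of m866, 958741 to 1252358 in contralateral legs, 1042703 to 1201649 in PBS-only legs, and 805943 and 828943 in HRS-MBP libraries. So did the mitochondrial share of the counts, at 3.41% to 6.29% in the HRS legs of m862 to m865, 11.1% in that of m866, 9.69% to 11.2% in contralateral legs, 11.3% to 13.1% in PBS-only legs, and 5.94% and 6.98% in HRS-MBP libraries. Skeletal muscle markers were present in every library. In HRS legs, all 8 macrophage, all 7 cytotoxic lymphocyte, all 6 T cell and all 5 tested neutrophil markers were called higher than in contralateral legs, all 4 adipocyte markers lower and 3 of 8 skeletal muscle markers lower (muscle score -0.97). The summed level of the macrophage markers was 1196 to 6143 normalized counts in HRS legs, 135 to 352 in contralateral legs, 115 to 255 in PBS-only legs and 5081 to 5518 in HRS-MBP libraries, with no macrophage marker at 0 in any group. Several libraries stood apart. The HRS leg of m866 had the lowest macrophage marker score of its group (6.14, against 7.40 to 8.44 in the other 4 mice, as a mean log2 level) and a fibroblast score of 6.70, against 8.31 to 8.88. The HRS leg of m864 had the highest T cell score (4.14, against 1.59 to 2.88 in the other HRS legs), cytotoxic lymphocyte score (4.38, against 2.19 to 3.05) and B cell score (2.35, against 0.29 to 0.94), and the lowest muscle score (11.5). Its macrophage (8.44), dendritic (3.09), neutrophil (3.15) and fibroblast (8.88) scores were also the highest of the HRS legs. The contralateral leg of m866 held more adipocyte transcripts than the other contralateral legs (score 8.78, against 4.65 to 6.16), and that of m864 more skin keratin transcripts (score 4.94, against -0.05 to 1.58). The part of these differences in the cathepsin results was not tested, and results are given without these libraries where that changed a call.

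Compared with the contralateral leg, 7 of the 10 cathepsins were higher in HRS-injected muscle. These were *Ctss*, *Ctsw*, *Ctsz*, *Ctsk*, *Ctsh*, *Ctsc* and *Ctsb*, with log2 fold changes from 1.34 to 4.75, whereas *Ctsa*, *Ctsl* and *Ctsd* did not pass. No cathepsin was lower. A gene was called when limma's adjusted p was below 0.05 and its fold change exceeded 2 in either direction (1 on the log2 scale). By the same rule 16.9% of all genes tested were called higher. The median log2 fold change was 2.11 over the 10 cathepsins and 0.077 over all genes. Every HRS leg lay above every contralateral leg for 7 cathepsins, the exceptions being *Ctsd*, *Ctsk* and *Ctsl*, and this held for 18.3% of all genes.

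**Figure D1:**
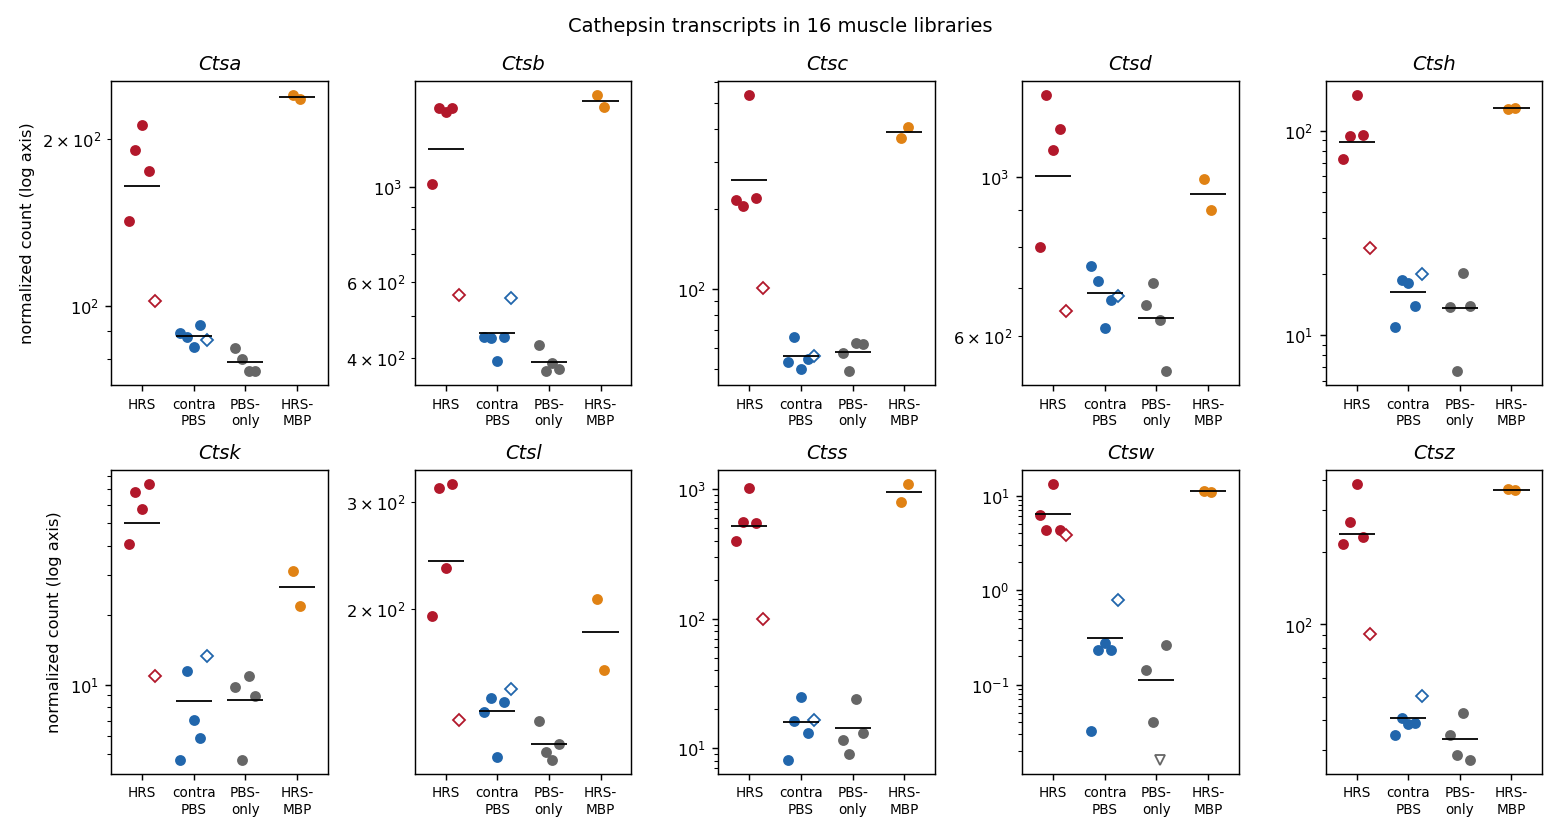
Normalized counts (log axis, a separate range in each panel) of the 10 cathepsins in 16 libraries, with 1 point per library and a line at the group mean. Open diamonds mark both legs of mouse m866, among which the HRS leg is the lowest of the 5 HRS legs in every panel, and the open triangle marks the PBS-only library in which *Ctsw* was listed at 0.

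*Ctss* (chr3:95526786-95556403, plus strand, GRCm38), the cathepsin that degrades the invariant chain of MHC class II in antigen-presenting cells, had the largest log2 fold change of the 10 in this comparison. In HRS legs it was at 397, 556, 1015, 546 and 99.1 normalized counts in mice m862 to m866. The contralateral legs of the same mice had 8.14, 16.2, 25.0, 13.2 and 16.6. Even the lowest HRS leg, that of m866, was therefore above the highest PBS leg. The log2 fold change was 4.75 (SE 0.48, limma adjusted p = 3.49e-06), 22nd of 16414 genes in order of size, and *Ctss* was 34.3 to 48.8 times as abundant in the HRS leg as in the PBS leg of m862 to m865 but 5.96 times in m866. Without both legs of m866 the log2 fold change was 5.30.

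*Ctsz* (chr2:174427493-174439039, minus strand), which encodes the carboxypeptidase cathepsin X, had 217, 269, 387, 232 and 91.2 normalized counts in HRS legs. Its contralateral legs had 34.8, 40.7, 38.5, 38.8 and 50.6, with no overlap between the groups. The log2 fold change was 2.41 (SE 0.27, limma adjusted p = 9.42e-06). *Ctsh* (chr9:90054152-90076089, plus strand), an aminopeptidase, lay between 26.6 and 150 in HRS legs and between 10.9 and 19.9 in contralateral legs, a log2 fold change of 2.23 (SE 0.37, limma adjusted p = 0.000213). *Ctsc* (chr7:88278085-88310888, plus strand), the dipeptidyl peptidase that activates granzymes and other granule proteases, had 216, 206, 538, 221 and 101 in HRS legs and 53.1, 66.1, 50.1, 54.7 and 56.0 in contralateral legs. Its log2 fold change was 1.98 (SE 0.29, limma adjusted p = 7.79e-05). For *Ctsc*, *Ctsh*, *Ctsz* and *Ctsw* the HRS leg of m864 was the highest of all 16 libraries. Of the HRS legs it also had the highest macrophage, dendritic, neutrophil, fibroblast and lymphocyte marker scores.

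*Ctsw* (chr19:5465043-5468507, minus strand), the cathepsin of NK cells and cytotoxic T cells, was the least abundant member. HRS legs had 6.22, 4.31, 13.4, 4.27 and 3.83 normalized counts. Contralateral legs had 0.032, 0.231, 0.277, 0.235 and 0.781, values that were worth 1 to 29 reads per library, and 1 of the 4 PBS-only libraries was at 0. Groups did not overlap, and the log2 fold change was 3.00 (SE 0.30, limma adjusted p = 3.03e-06). At such low levels in PBS legs the size depends on the pseudocount and ran from 1.77 to 4.07 over the alternatives, all of them called.

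*Ctsk* (chr3:95499256-95509362, plus strand), a collagenase, lies 17.4 kb upstream of *Ctss* on the same strand, and its values were ordered differently. HRS legs had 40.6, 68.3, 57.5, 74.3 and 10.9 normalized counts. Contralateral legs had 4.74, 11.4, 7.02, 5.88 and 13.3, so that 4 HRS legs were above all PBS legs and that of m866 fell among them. The log2 fold change was 2.35 (SE 0.44, limma adjusted p = 0.000565), and 3.00 without both legs of m866. *Ctsk* was highest in the HRS legs of m865 and m863, whereas *Ctss* was highest in an HRS-MBP library and the HRS leg of m864. The ratio of *Ctss* to *Ctsk* was 7.35 to 17.7 in HRS legs, 1.25 to 3.56 in contralateral legs, and 25.5 and 50.2 in the HRS-MBP libraries.

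Of the cathepsins of general protein turnover, *Ctsb* alone was called. *Ctsb* (chr14:63122462-63145923, plus strand) had 1017, 1533, 1498, 1530 and 562 normalized counts in HRS legs and 447, 444, 394, 448 and 553 in contralateral legs. The HRS legs were all above the contralateral ones, although by only 1.02 times within m866. Its log2 fold change was 1.34 (SE 0.23, limma adjusted p = 0.000327). *Ctsd* (chr7:142375911-142388038, minus strand) had 798, 1302, 1092, 1168 and 651 in HRS legs and 751, 717, 617, 673 and 684 in contralateral legs, with overlap. Its log2 fold change of 0.50 (95% interval 0.12 to 0.88, limma adjusted p = 0.0244) was under the fold threshold. The limma adjusted p of *Ctsd* was 0.131 with a fixed term for mouse and 0.0592 with only these 2 groups fitted. *Ctsl* (chr13:64359337-64370890, minus strand) spanned 131 to 321 in HRS legs and 114 to 147 in contralateral legs, with a log2 fold change of 0.74 (95% interval 0.32 to 1.16, limma adjusted p = 0.0049). *Ctsa* (chr2:164832873-164841032, plus strand) had no overlap between groups, at 102 to 212 against 84.2 to 92.2, and a log2 fold change of 0.85 (95% interval 0.53 to 1.17, limma adjusted p = 0.00037). *Ctsa* passed the fold threshold without both legs of m866, at 1.01, and both *Ctsa* and *Ctsl* passed it with libraries scaled to equal totals, at 1.27 and 1.16.

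Exons of *Ctsa* overlap those of *Pltp* on the opposite strand by 495 bases and those of *Neurl2* by 324, and *Pltp*, a phospholipid transfer protein gene, was at 69.4 to 194 in HRS legs and 21.4 to 48.6 in contralateral legs. *Ctsb* overlaps *Fdft1* by 774 bases and *Ctsl* an antisense gene by 1742 bases and a pseudogene by 395. *Ctsd* shares 808 bases with a gene model on the same strand. The library kit was directional, but whether strand was used in counting is not stated, so the share of reads from these neighbors is uncertain. Exons of the other 6 cathepsins overlap others by at most 10 bases.

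The RefSeq table used here (GRCm38.p6) held promoters, 250 bases before to 50 after a start, for 7 of the 10 members, and *Ctsb*, *Ctsh* and *Ctsw* are named only. They were searched on both strands for letters that known regulators of lysosomal or immune genes read. The motif CACGTG, the core of the site of TFEB and its relatives, which regulate lysosomal genes, was in promoters of *Ctsd* and *Ctsl*, in that of the downstream but not of the upstream RefSeq start of *Ctsa*, and in 7.15% of 32851 mouse promoters. Its extended form TCACGTGA, which contains it, was in *Ctsd* and at the same start of *Ctsa* and in 0.974% of promoters. GAGGAA, a core read by ETS factors such as the myeloid factor PU.1, was in *Ctsc*, *Ctsk* and *Ctss* and in 28.3% of promoters. GAAANNGAA, a core read by interferon regulatory factors, was in *Ctss* alone of the members and in 8.56% of promoters, and TTCNNNGAA, a STAT core, in *Ctsc* alone and in 8.3%. *Ctsz* and the upstream start of *Ctsa*, which is within 1 base of the gene start given above, held none. The RefSeq starts of *Ctsc*, *Ctss* and *Ctsz* are at the gene start, and that of *Ctsk* is before it. Those of *Ctsd* and *Ctsl*, and the downstream start of *Ctsa*, lie inside the gene. The *Ctsl* promoter (chr13:64370471-64370770) lies wholly within its gene, as does a CACGTG match of *Ctsd*. Apart from the upstream start of *Ctsa*, members not called against contralateral legs were therefore read at another part of the gene than members called. *Ctsa*, *Ctsd* and *Ctsl* were the members not called in HRS against contralateral legs, and *Ctsc*, *Ctsk*, *Ctss* and *Ctsz* were called. Against PBS-only legs *Ctsa* was called as well, and with libraries scaled to equal totals *Ctsa* and *Ctsl* were also called against contralateral legs. Whether a motif goes with a call was not tested, and 7 members, with motifs chosen when earlier results were known, could not decide it. The stretches below run from 200 bases before the start to 12 after it, and show a pair of members called against contralateral legs, *Ctss* and *Ctsc*, beside a pair not called in that comparison, *Ctsd* and *Ctsa* (from its downstream RefSeq start), with matches to these motifs in capitals (CACGTG for *Ctsd* and *Ctsa*). A match is a description of the letters, not a site shown to be bound.
Ctss (chr3:95526586-95526797, plus strand): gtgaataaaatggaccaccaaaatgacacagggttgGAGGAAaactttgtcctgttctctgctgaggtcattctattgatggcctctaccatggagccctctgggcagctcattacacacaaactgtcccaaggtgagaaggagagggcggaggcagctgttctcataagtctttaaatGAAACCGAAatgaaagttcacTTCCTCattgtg
Ctsc (chr7:88277885-88278096, plus strand): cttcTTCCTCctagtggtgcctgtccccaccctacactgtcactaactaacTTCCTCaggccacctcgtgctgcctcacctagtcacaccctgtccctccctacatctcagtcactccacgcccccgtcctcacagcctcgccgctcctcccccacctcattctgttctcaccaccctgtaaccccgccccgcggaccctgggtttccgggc
Ctsd (chr7:142387816-142388027, minus strand): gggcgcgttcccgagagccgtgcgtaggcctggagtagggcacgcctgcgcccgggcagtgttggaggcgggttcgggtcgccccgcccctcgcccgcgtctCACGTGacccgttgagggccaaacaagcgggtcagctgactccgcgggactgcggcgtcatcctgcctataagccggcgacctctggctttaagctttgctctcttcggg
Ctsa (chr2:164833573-164833784, plus strand): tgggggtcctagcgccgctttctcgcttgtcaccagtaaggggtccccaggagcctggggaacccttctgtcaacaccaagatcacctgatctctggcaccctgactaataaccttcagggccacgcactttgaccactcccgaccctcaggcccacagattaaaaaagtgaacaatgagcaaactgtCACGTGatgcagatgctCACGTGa

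In *Ctss* the GAAANNGAA match began 21 bases before the start and a GAGGAA match 164 bases before it, and another, TTCCTC as shown, began at base 1. In *Ctsc* the GAGGAA matches, which read TTCCTC on the strand shown, began 196 and 149 bases before the start. In *Ctsd* the CACGTG shown began 98 bases before the start, and in *Ctsa* the pair of matches began 12 bases before and at base 6 after it. The other matches, among them that of *Ctsc* to TTCNNNGAA, lie upstream of these stretches or in members not shown.

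Within mice, all 10 cathepsins were higher in the HRS leg of m862, m863, m864 and m865, and 7 of 10 in m866, where *Ctsd*, *Ctsk* and *Ctsl* were slightly lower. The median ratio of HRS to PBS leg over the 10 genes was 5.16, 4.27, 8.28 and 5.01 in m862 to m865 and 1.25 in m866. In total 7 cathepsins were higher in the HRS leg of all 5 mice, as were 26.3% of all genes. An exact two-sided sign-flip test over 5 mice cannot go below p = 0.0625, which these 7 genes reached, and *Ctsd*, *Ctsk* and *Ctsl* had p = 0.125.

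**Figure D2:**
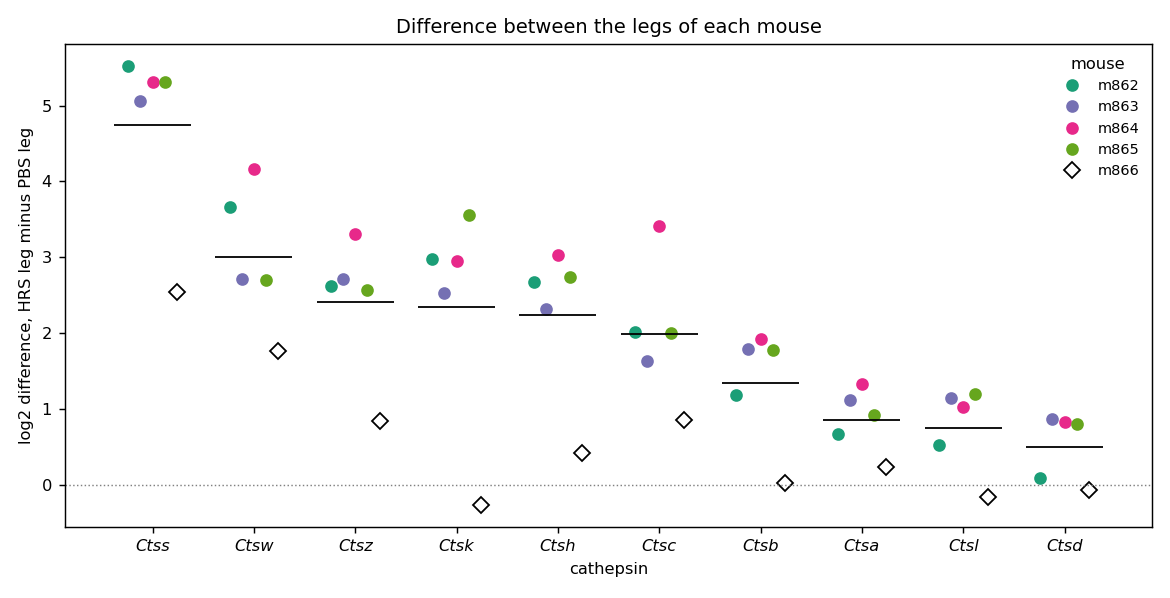
Difference between the HRS leg and the PBS leg of each of 5 mice, in log2(normalized count + 0.5), for the 10 cathepsins ordered by their mean, which is drawn as a line. Mouse m866 (open diamonds) has the smallest difference for every gene, from 2.54 for *Ctss* to -0.27 for *Ctsk*.

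Against the legs of mice that received PBS only, 8 cathepsins were higher in HRS muscle, against 18.9% of all genes, and only *Ctsd* (log2 fold change 0.62, limma adjusted p = 0.0112) and *Ctsl* (0.92, limma adjusted p = 0.00197) fell short of the fold threshold. Without the HRS leg of m866, *Ctsl* passed it, at 1.12 (adjusted p = 1.07e-05). *Ctsa* stood just above it, at 1.01 (limma adjusted p = 0.000143), and was between 0.90 and 0.99 without the HRS leg of m863, m864 or m865 or either leg of m868. *Ctss* had a log2 fold change of 4.89 and *Ctsw* of 3.37. HRS legs lay above all PBS-only legs for 9 cathepsins, *Ctsd* being the exception, and for 26.6% of all genes. Both comparisons use the same HRS legs and are given side by side only.

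Contralateral PBS legs were not called different from PBS-only legs for any cathepsin by limma, nor was any cathepsin at an unadjusted p below 0.05. Over all genes 1 was called (0.00609%; 0 to 3 over the alternatives), and 902 had an unadjusted p below 0.05. The log2 differences ran from -0.06 for *Ctsk* to 0.37 for *Ctsw*, and the 95% intervals were narrowest for *Ctsa* (-0.18 to 0.49) and widest for *Ctss* (-0.94 to 1.21). *Ctss* was at 11.6, 8.98, 23.9 and 13.2 normalized counts in PBS-only legs, within the range of the contralateral legs. *Ctsa* was the only cathepsin with every contralateral leg above every PBS-only leg (84.2 to 92.2 against 76.2 to 83.8, exact two-sided permutation p = 0.00794, with legs of one mouse counted apart), a pattern that 2.3% of all genes had. *Ctsb*, whose legs overlapped, had an exact two-sided permutation p of 0.0476 in the same comparison.

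**Figure D3:**
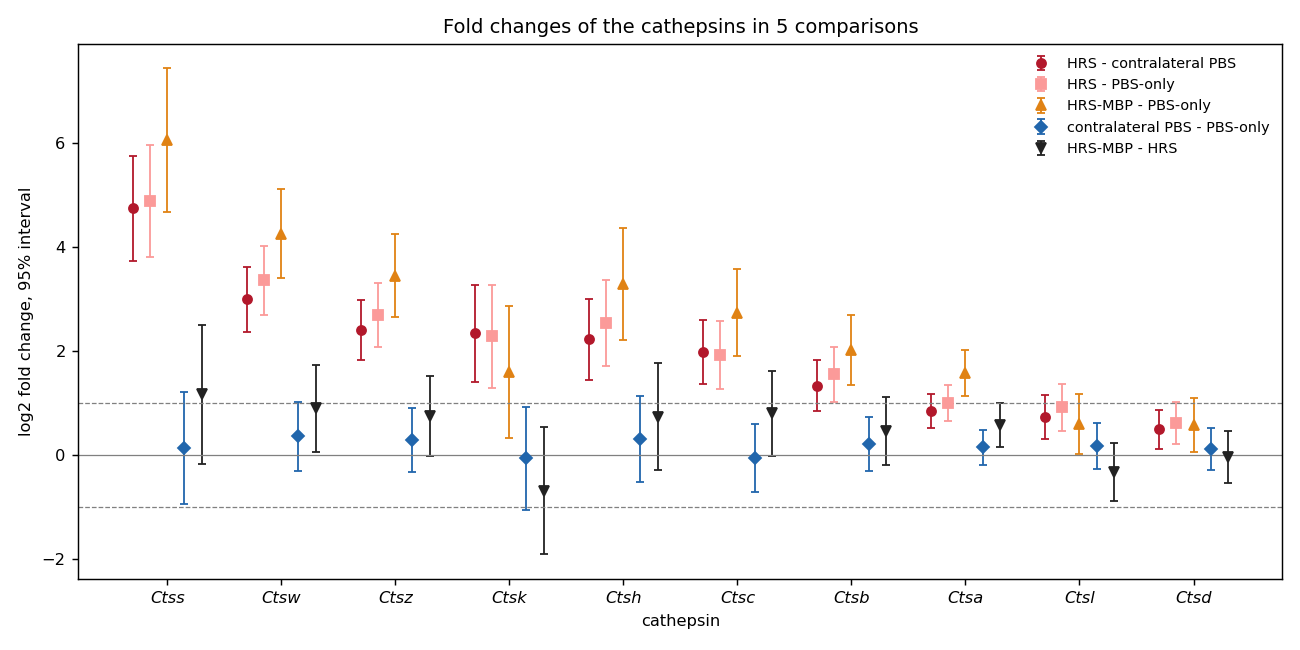
Log2 fold changes of the 10 cathepsins in 5 comparisons with 95% intervals from limma, and dashed lines at the fold threshold. The 3 comparisons of HRS or HRS-MBP with PBS legs lie above 0 for every gene, while contralateral minus PBS-only intervals all include 0.

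HRS-MBP muscle also held more cathepsin transcripts than PBS-only muscle. Of the 10 genes, 8 were called higher, against 20.7% of all genes, and all 10 had both HRS-MBP libraries above all 4 PBS-only legs, as did 39.8% of all genes. *Ctss* reached 791 and 1101 normalized counts, a log2 fold change of 6.06 (SE 0.65, limma adjusted p = 5.34e-06). *Ctsw* was at 11.3 and 11.0, with a log2 fold change of 4.27. *Ctsb* was at 1645 and 1542 and *Ctsz* at 366 and 365, with log2 fold changes of 2.03 and 3.46. *Ctsk* was lower than in 4 of 5 HRS legs, at 31.1 and 22.0, and its call (log2 fold change 1.61, limma adjusted p = 0.0318) was lost without the library of m860 (adjusted p = 0.18), that of m861 (0.0742) or the left leg of m867 (0.0789). It was also lost when both legs of a PBS-only animal were averaged into 1 value (1.57, adjusted p = 0.086) and with quantile normalization (1.25, adjusted p = 0.0806). *Ctsd* (0.58, limma adjusted p = 0.0525) and *Ctsl* (0.60, limma adjusted p = 0.0686) were not called.

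Between HRS-MBP and HRS no cathepsin was called by limma, and 0.463% of all genes were. *Ctsa* and *Ctsw* had an unadjusted limma p below 0.05 (0.0107 and 0.035), as did 2371 of all genes. The log2 difference was 1.17 for *Ctss* (95% interval -0.17 to 2.51), 0.58 for *Ctsa* (0.15 to 1.0), -0.68 for *Ctsk* (-1.91 to 0.55) and -0.04 for *Ctsd* (-0.54 to 0.46). With 2 mice these intervals are wide, and the doses and proteins differed. Both HRS-MBP libraries were above every HRS leg for *Ctsa* (240 and 236) and *Ctsb* only, as for 7.1% of all genes. Without the HRS leg of m864, *Ctsc* (1.13) and *Ctsw* (1.19) were called higher in HRS-MBP, and 3.59% of all genes were called in either direction.

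Together the 10 cathepsins summed to 3797 ± 1360 normalized counts in HRS legs (SD, n = 5), 1507 ± 103 in contralateral legs (n = 5), 1354 ± 84.6 in PBS-only legs (n = 4) and 4830 ± 62.3 in HRS-MBP libraries (n = 2). The make-up of this sum shifted. *Ctsd* took 45.7% ± 2.48 (SD, n = 5) of it in contralateral legs and 27.8% ± 5.69 in HRS legs, and the groups did not overlap (exact two-sided permutation p = 0.00794, the smallest that 252 arrangements of 5 and 5 legs allow). *Ctss* took 1.07% ± 0.485 and 12.5% ± 4.94 (exact permutation p = 0.00794), and 19.6% ± 4.29 in HRS-MBP libraries (n = 2). The shares of *Ctsl* (9.01% to 6.49%) and *Ctsa* (5.86% to 4.52%) were smaller in HRS legs, and those of *Ctsc* (3.72% to 6.52%), *Ctsz* (2.70% to 6.16%), *Ctsh* (1.08% to 2.20%), *Ctsk* (0.557% to 1.25%) and *Ctsw* (0.0203% to 0.173%) larger. Of 10 shares tested so, only that of *Ctsb* (30.3% and 32.4%, exact permutation p = 0.183) had a p above 0.05, and those of *Ctsa* and *Ctsk* did not pass without m862, m863, m864 or m865. Counted per kb of transcript, the shares in contralateral and HRS legs were 54.7% and 30.7% for *Ctsd* and 2.01% and 21.3% for *Ctss*. The share of one gene depends on those of the others, and legs of a mouse were counted apart in these tests.

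**Figure D4:**
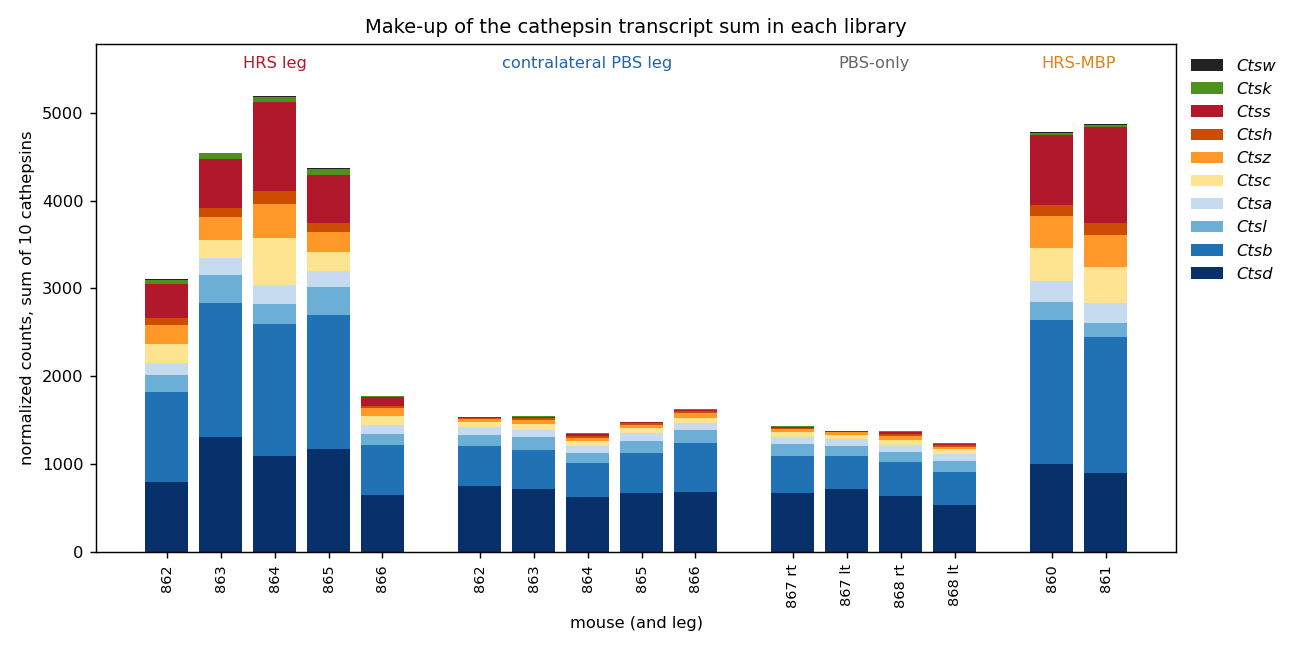
Stacked normalized counts of the 10 cathepsins in each of 16 libraries, by group and mouse. *Ctsd* and *Ctsb* (dark blues) fill most of every PBS bar, while *Ctss* (dark red) is a visible part of the HRS and HRS-MBP bars, from 5.57% in the HRS leg of m866 to 22.6% in an HRS-MBP library.

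Divided by transcript length in kb, so that genes can be compared with each other, the order of mean levels in contralateral legs was *Ctsd* (324 normalized counts per kb), *Ctsb* (96.4), *Ctsl* (69.0), *Ctsz* (28.2), *Ctsa* (24.2), *Ctsc* (22.5), *Ctss* (11.7), *Ctsh* (10.1), *Ctsk* (5.60) and *Ctsw* (0.251). The first 3 were separate from each other and from the rest over the 5 legs, whereas *Ctsz*, *Ctsa* and *Ctsc* overlapped each other in turn, as did *Ctss*, *Ctsh* and *Ctsk*. In HRS legs *Ctss* moved up to the second place (386 per kb) behind *Ctsd* (471) and ahead of *Ctsb* (259), and every pair of neighbors overlapped. In both HRS-MBP libraries *Ctss* was the most abundant cathepsin per kb (584 and 813), above *Ctsd* (467 and 424).

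Cathepsin levels were set beside marker lists for the cells known to express them, with each member's log2 level taken relative to the mean log2 level of the markers. The macrophage score was 3.15 higher in HRS than in contralateral legs. *Ctss* exceeded this, its level relative to the macrophage markers being 1.60 higher on the log2 scale in HRS legs (1.24 ± 0.44 against -0.36 ± 0.23, SD, n = 5 each, exact two-sided permutation p = 0.00794). Relative to the same markers 7 cathepsins were lower in HRS legs. The macrophage score rose far more than the all-gene median log2 fold change of 0.077, so most genes would be lower relative to it. These values therefore do not set the 7 cathepsins apart from other genes, and the share of all genes was not computed. The difference was -2.65 for *Ctsd*, -2.40 for *Ctsl*, -2.29 for *Ctsa*, -1.81 for *Ctsb*, -1.16 for *Ctsc*, -0.91 for *Ctsh* and -0.74 for *Ctsz* (exact permutation p = 0.00794 for each). *Ctsk* relative to macrophage markers differed by -0.80 (exact permutation p = 0.0397), which no longer passed when any 1 of the 5 mice was left out. *Ctsw* differed by -0.15 relative to macrophage markers (exact permutation p = 0.611) and by -0.11 relative to cytotoxic lymphocyte markers (exact permutation p = 0.365). Nothing is read from either, since in PBS legs *Ctsw* and the cytotoxic markers were so low that the pseudocount largely sets their values. *Ctsk* relative to the fibroblast markers, whose score was 1.80 higher, was 0.55 higher (exact permutation p = 0.0159), and did not pass without m862, m863, m864 or m865. In all, 12 such differences were tested, with legs of a mouse counted apart. How far cell number accounts for any of them was not tested.

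**Figure D5:**
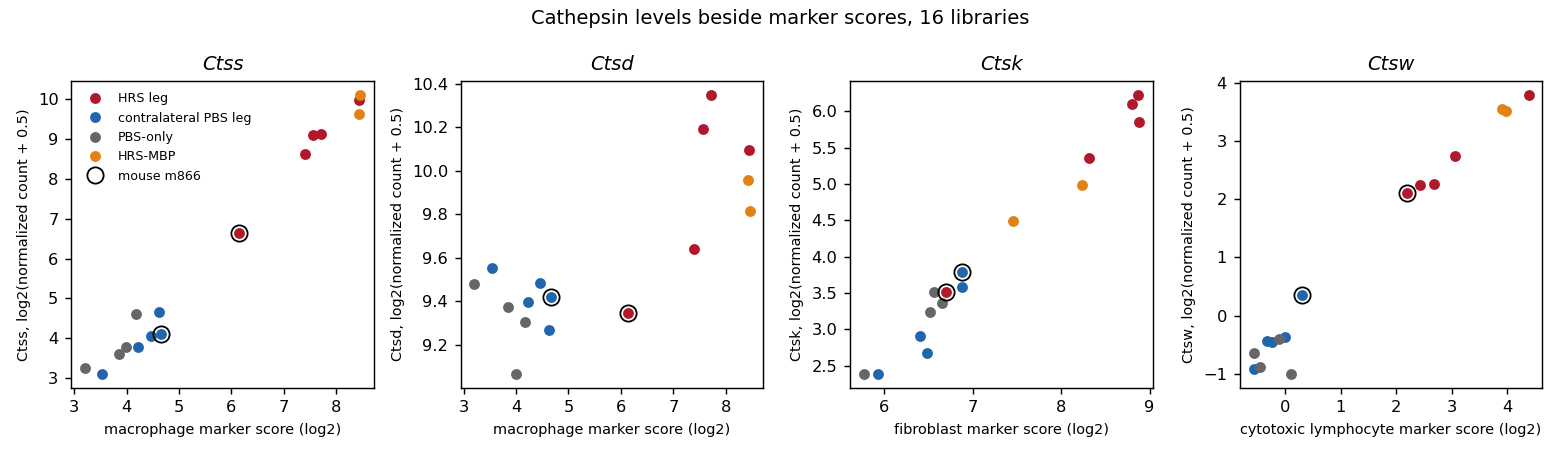
Log2 levels of *Ctss*, *Ctsd*, *Ctsk* and *Ctsw* against the mean log2 level of markers of macrophages, fibroblasts or cytotoxic lymphocytes in 16 libraries colored by group. *Ctss* and *Ctsk* are high where their markers are high, *Ctsw* and its markers lie near the level set by the pseudocount in PBS legs, and *Ctsd* spans a narrow range. The HRS leg of m866 (both its legs are circled) lies between the groups for *Ctss* and among the PBS legs for *Ctsk*.

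Genes whose log2 levels ran most like those of each cathepsin over the 16 libraries differed between members. All libraries share the contrast between groups, so that high correlations are common and are given as a description. For *Ctss* these were *Ly9* (Pearson r = 0.998), *Mpeg1* (0.996) and *Galnt6* (0.996), of which *Ly9* is a leukocyte receptor and *Mpeg1* a macrophage pore-forming protein. For *Ctsw* they were *Il2rb* (0.995), a receptor chain of NK and T cells, *Nkg7* (0.994), a cytotoxic granule gene, and *Tapbp* (0.992). For *Ctsk* they were *Mmp2* (0.992), a matrix metalloproteinase, *Emp1* (0.991) and the collagen gene *Col3a1* (0.990). Among the nearest to *Ctsa* were *Psap* (0.991), the saposin precursor, and *Zdhhc9* (0.988), and *Ctsb* ran with *Rrbp1* (0.992), the β-glucuronidase gene *Gusb* (0.990) and *Cmtm3* (0.990). *Ctsc* was nearest *Ptpn1* (0.993), the DNA sensor gene *Aim2* (0.992) and *Gsap* (0.992). *Ctsh* was nearest the Fc receptor gene *Fcgr2b* (0.992), *Anpep* (0.992) and *Fgd3* (0.992), and *Ctsz* nearest *Cndp2* (0.997), *Rhog* (0.996) and *Arrb2* (0.996). *Ctsl* and *Ctsd* had less close partners, led by *Calu* (0.979) and *Mcfd2* (0.961).

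Genes that act with the cathepsins were counted from lists, for HRS against contralateral legs, in which 16.9% of all genes were called higher. Of 25 endogenous inhibitors listed, 9 were tested, of which 6 were called higher and 1 lower (median log2 fold change 1.98). *Serpina3g*, an intracellular serpin that inhibits cathepsins, had a log2 fold change of 5.17, *Cst7* (cystatin F, an inhibitor of cathepsin C) 2.41 and *Cstb* (stefin B) 2.40, whereas *Cst6* was lower, at -1.15. Of 12 processing and partner enzymes, 8 were called higher (median 1.48), led by *Ifi30*, the lysosomal thiol reductase of antigen processing (3.42), *Lgmn*, the asparaginyl protease that matures cathepsins (2.24), and *Scpep1* (2.04). *Glb1*, the β-galactosidase that cathepsin A protects, was at 2.01. Of 10 genes of class II presentation, where cathepsins S and L trim the invariant chain, all 10 were called higher (median 3.18), led by *Ciita* (3.67), *H2-Eb1* (3.44) and *H2-Ab1* (3.43). Of 10 granule proteases of the kind that cathepsin C activates, 6 were tested and 2 called higher, *Gzmb* (3.02) and *Gzma* (2.95), and the other 4 did not pass.

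The counts for other parts of the lysosome varied more, and those of the vacuolar ATPase (3 of 16) and of mannose 6-phosphate sorting (1 of 10) were near or below the share of all genes. With libraries scaled to equal totals the all-gene median was 0.46 in place of 0.077 on the log2 scale, so values near 0 are read against that shift. Of 26 hydrolases other than proteases, 16 were called higher and none lower (median log2 fold change 1.17), led by *Lipa* (2.63), *Galns* (2.0) and *Gusb* (1.74), while acid α-glucosidase *Gaa*, the enzyme missing in Pompe disease, was at -0.65, under the fold threshold. Of 14 lysosomal membrane protein genes, 4 were called (median 0.68), and *Cd68* (3.60), *Slc11a1* (3.57) and *Laptm5* (3.32), all known from macrophages or leukocytes, led them. *Lamp1*, a major structural protein of the lysosomal membrane, was at 0.13 and did not pass. Of 16 tested genes of the vacuolar ATPase, the pump that acidifies the lysosome, 3 were called (median 0.41), *Atp6v0d2* (3.21), *Tcirg1* (2.58) and *Atp6v1a* (1.28). Of 10 genes of mannose 6-phosphate sorting, which brings cathepsins to the lysosome, only *M6pr* (1.20) was called. Of the 4 MiT/TFE transcription factors, *Tfec* (2.21) and *Tfe3* (1.16) were called higher, and *Tfeb* was at -0.83, under the fold threshold. Of 12 autophagy genes none was called higher, and *Bnip3* (-1.15) was called lower, as were 6.27% of all genes.

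The table held 4 other cathepsins. *Ctso*, a widely expressed cysteine cathepsin, was at 18.9 to 31.6 normalized counts in HRS legs and 11.3 to 20.8 in contralateral legs, with a log2 fold change of 0.81 (limma adjusted p = 0.000893), under the fold threshold. It was called higher against PBS-only legs in HRS (2.09-fold by the fitted log2 difference, limma adjusted p = 0.000169) and in HRS-MBP (3.02-fold, limma adjusted p = 4.33e-05), where both libraries, at 34.0 and 34.8, lay above every HRS leg. *Ctsf* ran the other way, at 20.1 to 29.8 and 26.0 to 36.9. It was lower in the HRS leg of all 5 mice, with a log2 fold change of -0.28 (limma adjusted p = 0.0619). *Ctse* and *Ctsg*, the neutrophil cathepsin G gene, were at most 2.0 and 0.393 in any library. They did not pass the filter on low values and were not tested by limma.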

How the data were processed

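Bulk RNA of mouse hamstring muscle was measured in 16 libraries from 9 mice, grouped by the treatment, mouse and side in the sample labels. Normalized counts per gene are what the authors deposited, a signal with no values below 0. The submitters' processing notes name STAR 2.7.8a, limma and the builds GRCm39 and mm39, whereas 98.9% of the 25652 genes matched by symbol and chromosome to GENCODE M21 (GRCm38) had its start and an end 1 base further. Positions are therefore those of GENCODE M21, and transcript lengths are of its principal transcript. How counts were scaled is not given in the sources used here. Low values were whole multiples of 1 step, within 0.02 steps, for 75.1% to 77.5% of values, so whole reads were not recovered and no test for read counts was run. The step gave the implied depths and what values are worth in reads, both approximate, and limma-voom was run on the normalized counts as an alternative only. Values worth under 3 reads, up to 0.364 in the shallowest library, are not resolved.

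limma 3.58.1 in R 4.3.3 (lmFit, eBayes with trend) was fitted to log2(normalized count + 0.5) of the 16414 genes with a mean of at least 0.5, with 4 groups in one model and Benjamini-Hochberg adjustment over all genes tested. Fold changes on this scale understate low genes. The fit was tested on simulated data, where a log2 shift of 1.5 was given to 200 genes and 88.5% of them were recovered for HRS against contralateral legs and 72.5% for HRS-MBP against PBS-only legs. Replicates are mice, except PBS-only legs, and p-values there measure the spread between legs. Single values were compared by exact permutation over libraries or sign flips over mice. The legs of a mouse are paired by the labels. Deviations of its legs correlated at r = 0.119, 0.163, 0.0972, -0.0256 and -0.366 in m862 to m866. Libraries were sequenced on several Illumina platforms, and which library ran on which is not given in the sources used here. Members, lists and motifs were chosen with earlier results of these data known. From each list at most 3 called genes with the largest change in HRS against contralateral legs were named, plus the largest called the other way. Other genes named from lists (*Glb1*, *Gaa*, *Lamp1* and *Tfeb*) were added after their values were seen. For each member the 3 genes most alike by Pearson r were taken, of which 1 is not reported here. Alternatives were other pseudocounts, filters, scalings, models and left-out libraries, and 2 were added after the data were seen, namely leaving out both legs of m866 and scaling libraries to equal totals.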

Additional observations from a re-analysis of the deposited data

How the results depend on the processing

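The 7 cathepsins called for HRS against contralateral legs were called in each of the 23 alternatives run, which gave 7 to 9 members called (8 in HRS against PBS-only, with 7 to 10). With mouse as a replicate block, 7 members were called both with fixed and with random mouse terms, and *Ctss* had an adjusted p of 0.00117 with the fixed block. No call changed under the mouse block, whereas averaging the legs of each PBS-only mouse lost *Ctsk* in HRS-MBP against PBS-only (7 called). *Ctsd*, not called in HRS against contralateral legs, had a limma adjusted p of 0.131 with the fixed and 0.0358 with the random block. Scaling to equal totals raised the all-gene median of log2 changes in HRS against contralateral legs from 0.077 to 0.462, and limma-voom, which also rescales to totals, to 0.483, whereas quantile normalization gave -0.16. Both *Ctsa* and *Ctsl* passed under these 3 settings. HRS against PBS-only called 10 members under each of them, HRS-MBP against PBS-only called 10 with limma-voom and with equal totals, and *Ctsa* was lost with a pseudocount of 2 (0.99) and with median-of-ratios scaling (0.87). Leaving out 1 library in turn gave 7 to 8 members for HRS against contralateral legs, 7 to 9 for HRS against PBS-only, 0 for contralateral against PBS-only, 7 to 8 for HRS-MBP against PBS-only, and 0 to 2 for HRS-MBP against HRS. The count of 2 arose without the HRS leg of m864.

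Signs changed only near 0. *Ctsd* in HRS-MBP against HRS became 0.0264 with median-of-ratios scaling, 0.0174 with limma-voom and 0.0336 with equal totals, and ran from -0.181 to 0.0692 with 1 library left out. *Ctsk* in contralateral against PBS-only legs ran from -0.305 to 0.111 with 1 library left out, and *Ctss* there from -0.0507 to 0.404. The share of *Ctsb* per kb of transcript differed by -0.275 percentage points, and *Ctsw* relative to the median macrophage marker by 0.179. The causes were not tested. Over all genes, HRS-MBP against HRS called 76, with 35 at a mean of at least 2, 4 when only these groups were fitted, 590 without the HRS leg of m864, 180 without that of m866, and 135 and 25 without the HRS-MBP library of m860 and of m861. Depth limits *Ctsw* in PBS legs.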
